A study of Mus musculus with 3 samples.

Results

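The MHC class II antigen presentation genes examined here are H2-Aa, H2-Ab1, H2-Eb1, H2-Ea, H2-DMa, H2-DMb1, Cd74, Ciita and Cd86. The genes were chosen with earlier results of these data known, so their counts beside shares of all genes describe a chosen set. Every probe set whose single symbol was one of these names was taken. This gave 11 probe sets for 9 genes, out of 12422 probe sets and 8251 named genes on the array. Total RNA of lungs was measured on 3 Affymetrix mouse arrays, 1 for lungs of mice with B16 tumours, from a mouse melanoma line (the B16 lung), 1 for lungs of mice with LLC tumours, from the Lewis lung carcinoma line of mouse (the LLC lung), and 1 for normal lung (the control lung). Per the series description, tumour cells were placed under the skin of the back, and the lungs stand for a stage before tumour cells arrive. The labels give no strain, age, number of animals or time after injection. With 1 array per group there is no replicate, no test and no error for any difference, so each value describes these 3 arrays.

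MHC class II molecules are pairs of an alpha and a beta chain that carry peptides from engulfed proteins to the cell surface, where CD4 T cells read them. The invariant chain Cd74 fills the groove of a new pair and guides it to endosomes. There cathepsins trim Cd74, and the H2-DM pair exchanges the last fragment for a peptide. Dendritic cells, B cells and macrophages are the main carriers, and type 2 alveolar cells of mouse lung carry class II as well. Ciita is the co-activator that turns on this gene set, and it acts through factors bound to the X and Y boxes of class II promoters. Cd86 is a costimulatory ligand that antigen-presenting cells show to CD28 on T cells.

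The promoters of H2-Aa, H2-Eb1 and H2-DMb1 are printed because they show these boxes. RefSeq promoters (build GRCm38.p6, 250 bases before to 50 after each start) were matched by symbol for 4 of the 9 genes, H2-Aa, H2-Eb1, H2-DMb1 and H2-DMa. Promoters of H2-Ab1, H2-Ea, Cd74, Ciita and Cd86 are not used here. The X box core was searched as CTNGNAAC and the Y box as TGATTGG, on both strands, where N is any base; the 2 motifs share no bases at the sites printed. These letters were chosen with the promoters in view, so the matches are a description. Below are the 170 bases before each start, 5′ to 3′ on the gene's strand, with the X box core and then the Y box in capitals.
H2-Aa, chr17:34287824-34287993, minus strand: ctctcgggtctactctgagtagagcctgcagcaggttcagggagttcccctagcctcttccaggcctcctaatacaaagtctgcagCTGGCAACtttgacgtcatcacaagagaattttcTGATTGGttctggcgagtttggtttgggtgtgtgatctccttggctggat
H2-Eb1, chr17:34305697-34305866, plus strand: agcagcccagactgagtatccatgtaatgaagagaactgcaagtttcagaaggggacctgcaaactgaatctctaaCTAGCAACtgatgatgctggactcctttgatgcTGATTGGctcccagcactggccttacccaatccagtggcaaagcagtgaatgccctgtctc
H2-DMb1, chr17:34153021-34153190, plus strand: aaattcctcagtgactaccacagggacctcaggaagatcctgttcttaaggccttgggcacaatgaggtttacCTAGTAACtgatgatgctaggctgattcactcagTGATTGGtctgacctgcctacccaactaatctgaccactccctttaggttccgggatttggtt

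The X box core began at position −84 in H2-Aa, −94 in H2-Eb1 and −97 in H2-DMb1, counted from the annotated start. The Y box followed on the same strand after a gap of 26 bases in H2-Aa, 25 in H2-Eb1 and 26 in H2-DMb1. Over 32851 RefSeq promoters of the same length, 13.2% held the X box core and 7.82% the Y box. An X box core followed by a Y box within 40 bases was found in 31 promoters, or 0.0944%. H2-Ob, a chain of the H2-O pair that inhibits H2-DM, was another of these, while both windows of H2-DMa held neither motif.

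**Figure D1:**
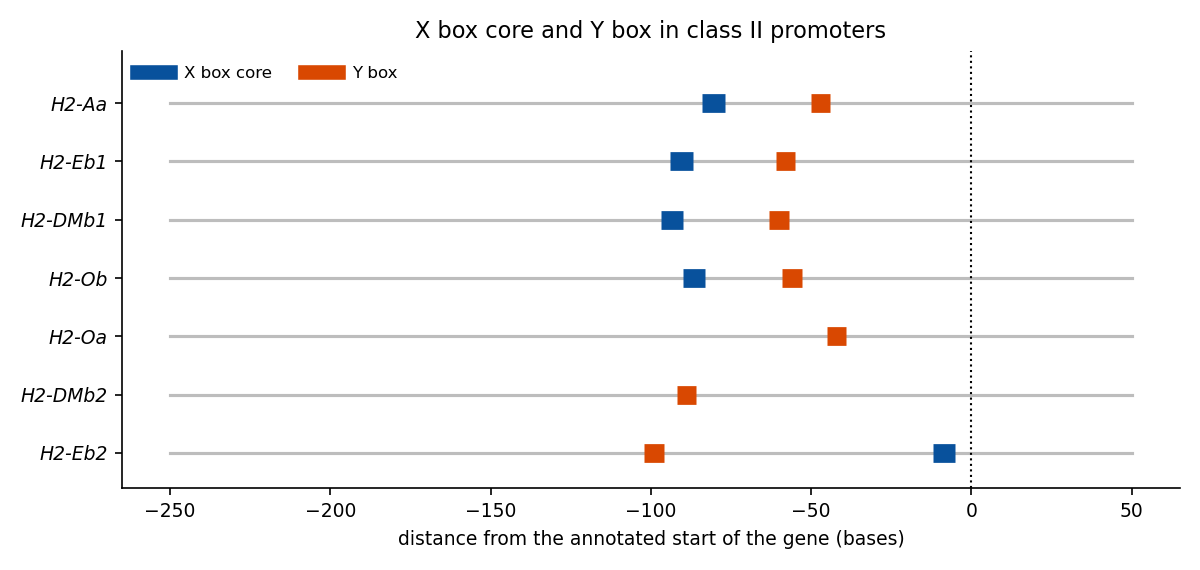
Position of the X box core (blue) and the Y box (orange) in class II promoters, in bases from the annotated start of the gene (dotted line). H2-Aa, H2-Eb1, H2-DMb1 and H2-Ob have the X box core before the Y box with the same spacing to within a few bases; H2-Oa and H2-DMb2 show the Y box alone, and H2-Eb2 has both boxes in the other order.

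As facts of the arrays, the deposited medians were 41.8, 44.4 and 44.5 in the B16, LLC and control lung. Each array was multiplied by 1 factor (0.987, 1.01 and 1), and signals under a floor of 23.6, the 40th percentile of all scaled signals, were raised to it before the log2 step. The 3′ to 5′ ratio of the Gapdh control was 1.20, 1.001 and 0.957 in the same order. The tissue label was checked on lung markers: Sftpc, the surfactant protein of type 2 cells, had signals of 7482 in the B16, 7298 in the LLC and 6206 in the control lung. Scgb1a1, the secretory protein of club cells, had 5927 in the B16, 6219 in the LLC and 5424 in the control lung. Robust SDs below are scaled median absolute deviations of the log2 differences of all probe sets in the same range of signal, and they hold real differences between lungs as well as noise. Bright probe sets as a whole stood slightly above control: those with a mean signal of 1000 or more had a median log2 difference of 0.11 in the B16 and 0.10 in the LLC lung. Those with a mean signal of 25 to 50 had medians of −0.12 in the B16 and −0.02 in the LLC lung.

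All 9 genes were above the floor on every array, so none entered through 1 lung alone. All 9 were higher in the LLC lung than in the control lung, where 49.9% of all 6000 genes measured were higher. Their median log2 difference was 0.45, beside 0.00 over all genes. In the B16 lung, 5 were higher and 4 lower than in the control lung, where 49.3% of 5968 genes were higher and 50.7% lower, and the median was 0.04 beside −0.01 over all genes. Scaling by the median of all probe sets moved every B16 value up by 0.11 relative to control, and then 2 of the 9 were lower. Compared with each other, the B16 lung was the lower for 8 of the 9, where 52.3% of 5984 genes were lower, and the median was −0.57 beside −0.02. The LLC lung had the highest signal of the 3 for 8 of the 9 genes, beside 31.8% of all genes above the floor on any array. These counts share arrays with each other: both tumour-bearing lungs are set against the same control array. In RNA of whole lung, fewer cells of a type and less RNA per cell cannot be told apart.

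**Figure D2:**
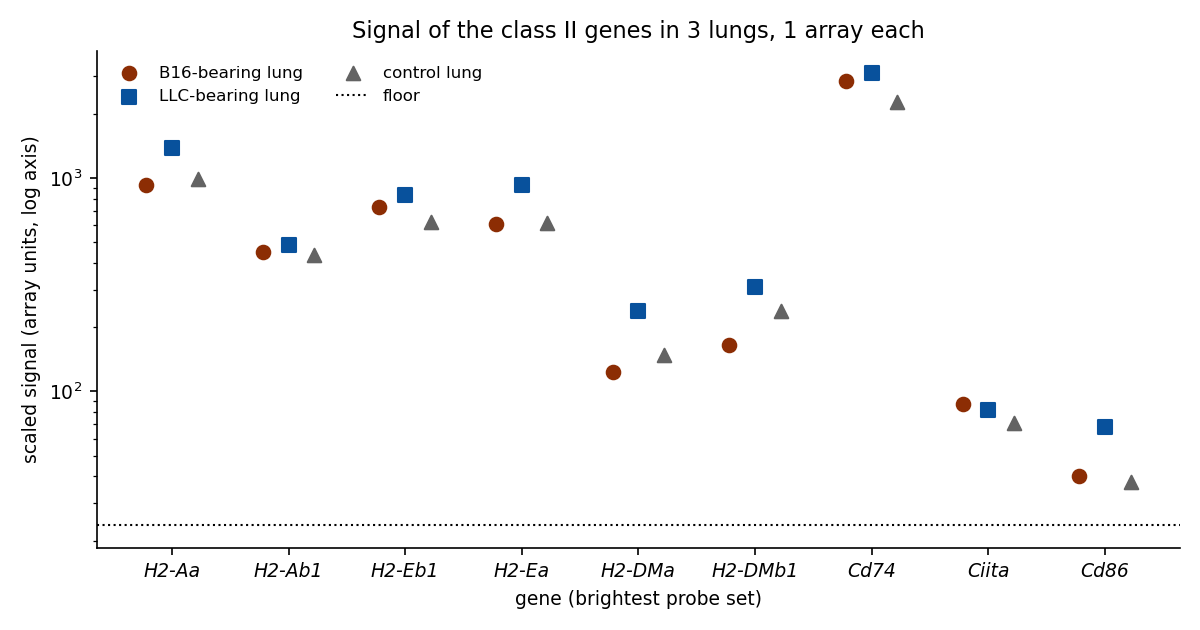
Scaled signal of each class II gene (its brightest probe set) on a log axis, with the B16 lung (circle), the LLC lung (square) and the control lung (triangle) from left to right, 1 array each, and the floor of 23.6 as a dotted line. The square is the highest mark for every gene except Ciita, where the B16 lung reads 87.3 and the LLC lung 81.7.

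The chains of the classical class II molecules are given first. H2-Aa, the alpha chain of I-A, had signals of 933 in the B16 and 1385 in the LLC lung, against 986 in the control lung. The LLC lung stood above the other lungs, which lay close together: the log2 difference from control was −0.08 in the B16 and 0.49 (1.41-fold) in the LLC lung. The LLC difference was beyond the band of the median and 1 robust SD (0.10 and 0.15) of probe sets with signals of 1000 or more. H2-Ab1, the beta chain that pairs with H2-Aa, had signals of 450.0 in the B16 and 487.5 in the LLC lung, against 438 in control. It had the smallest LLC difference of the 9 genes, at 0.16, and its B16 difference was 0.04, both within 1 robust SD. The partner chains of I-A thus differed by unlike amounts on these probe sets.

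H2-Eb1, the beta chain of I-E, had signals of 731.5 in the B16 and 833 in the LLC lung, against 625 in the control lung. Both tumour-bearing lungs were above control, by 0.23 (1.17-fold) in the B16 and 0.42 (1.33-fold) in the LLC lung. H2-Ea, the alpha chain of I-E, had 611 in the B16 and 926 in the LLC lung, against 619 in control. Its difference from control was −0.02 in the B16 and 0.58 (just under 1.5-fold) in the LLC lung, where the robust SD of probe sets with signals of 500 to 1000 was 0.22. Some mouse strains, among them C57BL/6, carry a deletion in the H2-Ea promoter and make no I-E, and RefSeq annotates the gene in its C57BL/6J assembly as a transcribed pseudogene. The H2-Ea probe set read well above the floor in all 3 lungs, and binding of other transcripts to it was not tested.

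H2-DMa and H2-DMb1 encode the alpha and beta chain of the peptide exchanger H2-DM and had the largest differences between the tumour-bearing lungs. H2-DMa had signals of 124 in the B16 and 239 in the LLC lung, against 148 in the control lung. The B16 lung was 1.20-fold below control (−0.26) and the LLC lung 1.61-fold above it (0.69). H2-DMb1 had 165 in the B16 and 308 in the LLC lung, against 237.5 in control, which is 1.44-fold below control in the B16 lung (−0.52) and above it by 0.38 on the log2 scale in the LLC lung. Both genes were therefore lowest in the B16, intermediate in the control and highest in the LLC lung. The B16 lung was 1.94-fold below the LLC lung for H2-DMa (−0.95) and 1.86-fold for H2-DMb1 (−0.90), while the robust SD of that comparison was 0.40 for signals of 100 to 200 and 0.32 for signals of 200 to 500. Another H2-DMa probe set did not reach the floor on any array and adds no value.

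The signals of Cd74, the invariant chain, were 2852 in the B16 and 3101 in the LLC lung, against 2266 in the control lung. Here both tumour-bearing lungs stood above control and near each other. The difference from control was 0.33 (1.26-fold) in the B16 and 0.45 (1.37-fold) in the LLC lung, and the B16 minus LLC difference was −0.12. Both differences from control were beyond the median plus 1 robust SD of equally bright probe sets, narrowly so in the B16 lung, where these were 0.11 and 0.22.

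Ciita and Cd86 read below 100 on all arrays, a range where the spread between arrays is wider. Ciita had signals of 87.3 in the B16 and 81.7 in the LLC lung, against 71.0 in the control lung. Its difference from control was 0.30 in the B16 lung, where the robust SD of probe sets with signals of 50 to 100 was 0.54, and 0.20 in the LLC lung, where it was 0.45. It was the gene of the 9 that did not read highest in the LLC lung. Cd86 had signals of 40.1 in the B16 and 68.0 in the LLC lung, against 37.5 in control. Its LLC difference of 0.86 (1.81-fold) was the largest of the 9 genes, at a signal where the robust SD was 0.58, and its B16 difference was 0.10. The other Cd86 probe set did not reach the floor on any array.

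Differences of at least 1.5-fold were counted next. In the LLC lung H2-DMa and Cd86 were at least 1.5-fold higher than in the control lung, 2 of 9 genes where 9.32% of all genes were. In the B16 lung 0 of 9 were at least 1.5-fold higher or lower than control, where 9.42% and 13.7% of all genes were. Between the tumour-bearing lungs, H2-Ea, H2-DMa, H2-DMb1 and Cd86 were at least 1.5-fold lower in the B16 lung, 4 of 9 where 12.8% of all genes were. H2-Ea passed narrowly, at 1.516-fold. Against probe sets of like signal, 7 of the 9 genes lay more than 1 robust SD from the band's median in the LLC against control comparison. The count was 2 of 9 in the B16 against control comparison and 5 of 9 between the tumour-bearing lungs. A part of all probe sets lies beyond 1 robust SD by construction. That share was not counted, so these counts have no background beside them.

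**Figure D3:**
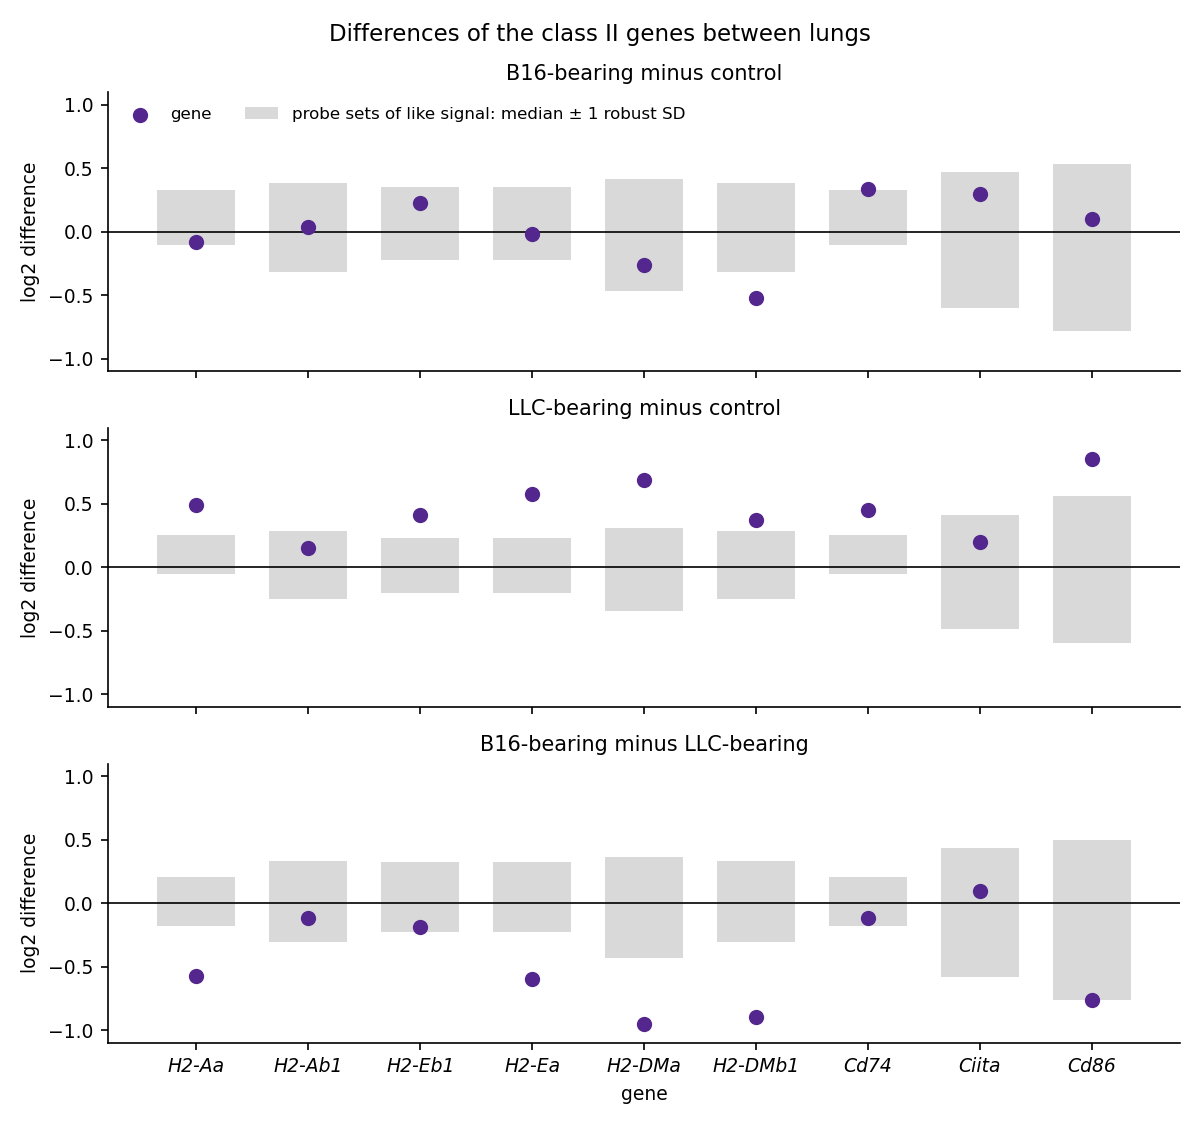
Log2 difference of each class II gene (points) in the B16 against the control lung (top), the LLC against the control lung (middle) and the B16 against the LLC lung (bottom). Grey bars span the median ± 1 robust SD of all probe sets in the same range of signal. A part of all probe sets lies outside such bars by construction. All 9 points of the middle panel lie above 0 and 7 lie above their bars. In the top panel Cd74 lies just above and H2-DMb1 below its bar.

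The rest of the listed class II machinery was mixed. Of 23 listed genes 19 were on the array, and 15 of these were above the floor on every array. Of the 15, 11 were higher and 4 lower in the LLC than in the control lung, with a median of 0.12. In the B16 lung 5 were higher and 10 lower, with a median of −0.04. Of all genes measured, 49.9% were higher in the LLC and 49.3% in the B16 lung. These shares, which stand beside the lists below too, include genes under the floor on 1 array. Ctss, the cathepsin that makes the last cuts in Cd74, had signals of 609 in the B16 and 1102 in the LLC lung, against 975 in control, which is −0.68 in the B16 and 0.18 in the LLC lung. Ctse, an aspartic protease of endosomes, went the other way, with 206 in the B16 and 71.7 in the LLC lung, against 98.0 in control, which is 1.07 in the B16 and −0.45 in the LLC lung. H2-DMb2, the second H2-DM beta gene, had 41.4 in the control lung, near the floor, and was below the floor in both tumour-bearing lungs. It could therefore only be lower, by at least 1.76-fold in each. Creb1, a factor that can bind next to the X box, had 30.3 in the B16 and 44.5 in the LLC lung, against 26.9 in control, close to the floor.

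Genes of the interferon gamma pathway, which induces Ciita, were measured as well. Of the 12 above the floor on every array, 10 were higher in the LLC lung than in control, with a median of 0.25. In the B16 lung 5 of them were higher, with a median of −0.01. Of all genes measured, 49.9% were higher in the LLC and 49.3% in the B16 lung. Ifngr1 and Cxcl9 are not among the 12, since neither passed the floor in the control lung. Ifngr1, the ligand-binding subunit of the interferon gamma receptor, had signals of 80.7 in the B16 and 149.9 in the LLC lung and was below the floor in control, so that it could only be higher: at least 3.42-fold in the B16 and 6.35-fold in the LLC lung. Iigp1 and Igtp, interferon-inducible GTPases, were higher in both lungs alike. Iigp1 had 263 in the B16 and 242 in the LLC lung, against 111 in control. Igtp had 189.6 in the B16 and 189.9 in the LLC lung, against 86.6 in control. Ifi47, another such GTPase, had 76.8 in the B16 and 44.1 in the LLC lung, against 34.4 in control. The cytokine itself, Ifng, was below the floor on all 3 arrays.

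Class I genes, which present peptides of the cell's own interior to CD8 T cells, were above the floor on every array for 15 genes. Of these, 13 were higher in the LLC than in the control lung, with a median of 0.30. In the B16 lung 9 were higher, with a median of 0.01. Of all genes measured, 49.9% were higher in the LLC and 49.3% in the B16 lung. Among genes with a mean signal of 1000 or more, as for H2-K1, H2-D1 and B2m, these shares were 72.3% and 71.6%. H2-Q1 and H2-T24 were below the floor in control and are not counted. Psmb10, a subunit of the immunoproteasome, had signals of 142 in the B16 and 324 in the LLC lung, against 163 in control, which is 1.15-fold below control in the B16 and 1.99-fold above it in the LLC lung. Tap1 and Tapbp, parts of the peptide loading complex, were above control in both lungs. The difference of Tap1 was 0.30 in the B16 and 0.35 in the LLC lung, and that of Tapbp was 0.56 in the B16 and 0.34 in the LLC lung. H2-T24, a nonclassical class I gene, had 30.0 in the B16 and 27.3 in the LLC lung, close to the floor.

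Markers of the cells that carry class II did not share 1 direction. Of 18 macrophage and monocyte markers on the array 14 were above the floor on every array. With values under the floor set to it, the 18 summed to 4147 in the B16 and 6445 in the LLC lung, against 5159 in the control lung. H2-DMa and H2-DMb1 had the same order of the 3 lungs. H2-Aa and H2-Ea had it too, but not with scaling by the median of all probe sets, where their B16 difference from control was 0.03 for H2-Aa and 0.09 for H2-Ea. H2-Ab1, H2-Eb1, Cd74, Ciita and Cd86 did not have it, as each read higher in the B16 than in the control lung. For H2-Ab1 and Cd86 that difference was small, 0.04 and 0.10. Quantile normalization brought H2-Ab1 level with control (−0.0). The class II genes summed to 5994 in the B16 and 7430 in the LLC lung, against 5429 in control, so their sum had another order. Cd74 was the largest term of that sum, with 2852 in the B16 and 3101 in the LLC lung, against 2266 in control. The order of the class II sum thus leans on Cd74, and the sum without it was not taken. The largest term of the macrophage and monocyte sum was Lyz2, a lysozyme of myeloid cells, with 2182 in the B16 and 2967 in the LLC lung, against 2703 in control. Without it the sums were 1965 in the B16 and 3478 in the LLC lung, against 2456 in control. The median difference of the 14 markers above the floor was −0.40 in the B16 lung, with 5 higher and 9 lower. In the LLC lung it was 0.36, with 11 higher and 3 lower. Of all genes measured, 49.3% were higher in the B16 and 49.9% in the LLC lung. Cd68, a lysosomal protein of macrophages, had 46.8 in the B16 and 155 in the LLC lung, against 122 in control. Tyrobp, a signalling adaptor of myeloid cells, had 226.5 in the B16 and 706 in the LLC lung, against 305 in control. Ccr2, the receptor of inflammatory monocytes, had 27.8 in the B16 and 294 in the LLC lung, against 46.8 in control. Chil3, a chitinase-like protein of alveolar macrophages, was lower in both, with 288 in the B16 and 442.5 in the LLC lung, against 549.5 in control. Adgre1, Marco, Siglec1 and Fcer1g were below the floor on all arrays. The part of these cells in the class II differences was not tested.

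B lymphocyte markers were mostly lower. Of 14 on the array 9 were measured and 4 were above the floor on every array. Of these 4, Cd79b, Ms4a1 and Cd37 were lower and Pax5 higher than in control in each tumour-bearing lung, with medians of −0.37 in the B16 and −0.52 in the LLC lung. Of the 9 measured, 5 in the B16 and 3 in the LLC comparison passed the floor in the control lung alone and could only be lower. With these included the medians were −0.69 in the B16 and −1.13 in the LLC lung. Their summed signal, with values under the floor set to it, was 894 in both tumour-bearing lungs, against 1295 in the control lung. Fcer2a, the IgE receptor of B cells, had 120 in the control lung and was below the floor in both tumour-bearing lungs, at least 5.08-fold lower. Cd79a, which carries the signal of the B cell receptor, had 111 in the control lung, was at the floor with 23.9 in the LLC lung and was below it in the B16 lung. Blnk, an adaptor of B cells, was below the floor in both tumour-bearing lungs, at least 2.44-fold under control in each. Pou2af1, a transcriptional co-activator of B cells, was at least 2.71-fold under control in the B16 lung and 2.34-fold in the LLC lung.

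Dendritic cell markers were mixed. Of 14 on the array 8 were above the floor on every array, with 3 higher and 5 lower than control in each tumour-bearing lung and medians of −0.12 in the B16 and −0.07 in the LLC lung. The summed signal of the 14 was 3490 in the B16 and 4041 in the LLC lung, against 3673 in the control lung, and most of it came from Cst3, the protease inhibitor cystatin C. Without Cst3 the sums were 989 in the B16 and 982 in the LLC lung, against 950.1 in control. Xcr1, the chemokine receptor of cross-presenting dendritic cells, had 50.5 in the B16 and 67.5 in the LLC lung and was below the floor in control, so that it could only be higher: at least 2.14-fold in the B16 and 2.86-fold in the LLC lung. Flt3, a growth factor receptor of dendritic cell precursors, had 137 in the B16 and 101 in the LLC lung, against 76.4 in control. Batf3, a factor of the same dendritic cells as Xcr1, had 73.2 in the B16 and 84.9 in the LLC lung, against 59.2 in control. Ly75, an endocytic receptor, had 29.0 in the B16 and 47.1 in the LLC lung, against 56.2 in control. Ccr7, Cd83, Ccl17 and Irf4 were below the floor on all arrays.

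Of the T cell partners, Cd4, the co-receptor that binds class II, had signals of 168 in the B16 and 109 in the LLC lung, against 124 in control; Cd28, Ctla4, Lag3, Cd40lg and Icos were below the floor on all arrays. Of 10 T lymphocyte markers on the array, Il7r alone was above the floor, with 46.0 in the B16 and 44.3 in the LLC lung, against 35.4 in control. The 5 lung epithelial markers on the array had medians of 0.27 in the B16 and 0.13 in the LLC lung, with summed signals of 18640 in the B16 and 17720 in the LLC lung, against 15850 in control. Sftpb, a surfactant protein, was above control by 0.22 in the B16 and 0.13 in the LLC lung. Sftpd, a surfactant lectin, differed from control by 0.42 in the B16 and −0.47 in the LLC lung. Ager, a receptor of type 1 cells, differed by 0.37 in the B16 and −0.10 in the LLC lung.

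**Figure D4:**
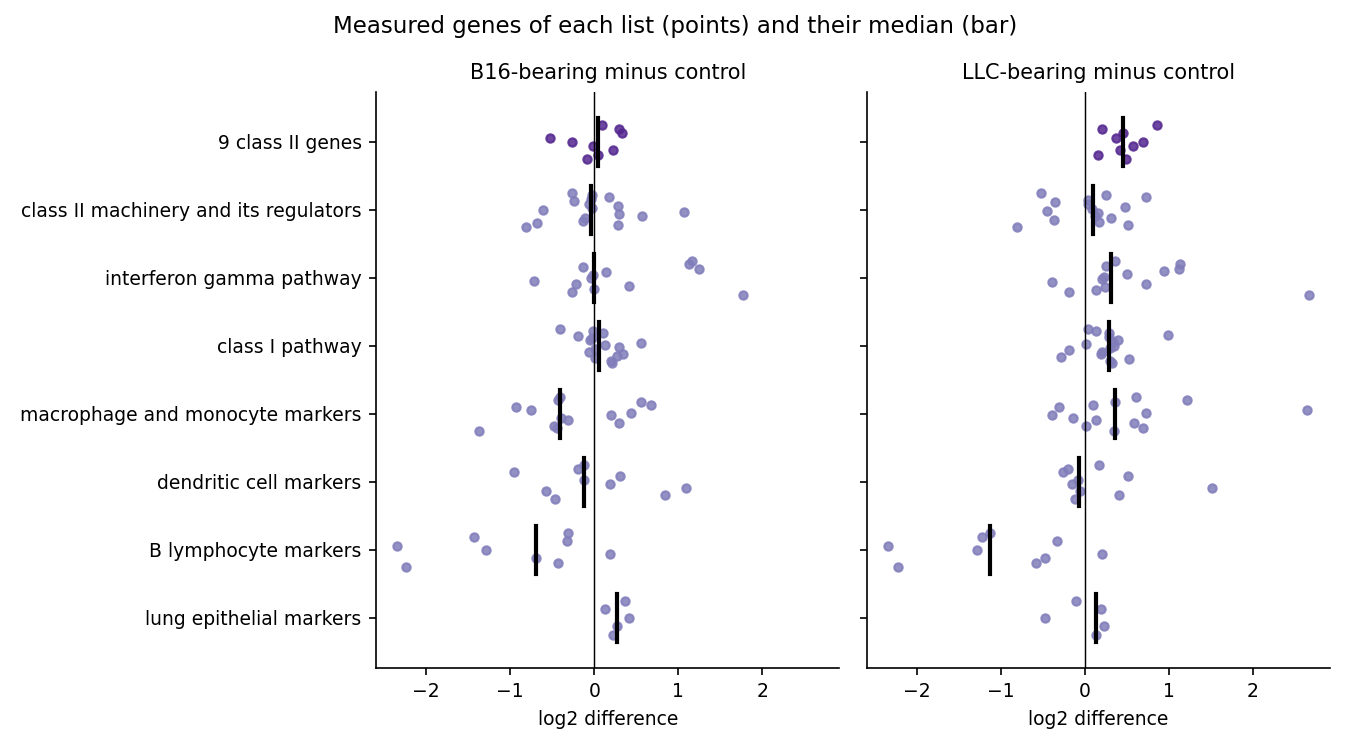
Log2 difference from the control lung of every measured gene of each list (points) with the list's median (black bar), for the B16 lung (left) and the LLC lung (right). The 9 class II genes are centred at 0.04 on the left and lie all above 0 on the right, with a median of 0.45; macrophage and monocyte markers have medians of −0.40 (B16) and 0.36 (LLC), and B lymphocyte markers of −0.69 (B16) and −1.13 (LLC), with genes under the floor on 1 side included.

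The genes with the pattern most like the class II group were found by the distance between their pair of log2 differences from control and the group's median pair (0.04 in the B16 and 0.45 in the LLC lung), over 3 arrays and 4711 candidate genes. The nearest were Hrh2, a histamine receptor, Il16, a chemoattractant that binds CD4, Tcte2, Ddx21, an RNA helicase, and Raly, an RNA-binding protein, at distances of 0.011 to 0.044. Il16 had signals of 69.0 in the B16 and 90.5 in the LLC lung, against 67.2 in control, and Ddx21 had 169 in the B16 and 227 in the LLC lung, against 162 in control. Within a distance of 0.2 lay 222 of the candidates.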

How the data were processed

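Lung RNA was measured in 3 samples, grouped by title or source name. Per the labels' protocols, TRIzol was used to isolate total RNA, from which biotinylated cRNA was produced for the arrays. The values the authors deposited are linear array intensity with background subtracted, since 20.2% to 21.0% of them lie below 0; each column had a 2% trimmed mean of 100.1. No label names the software, the probe summary or a build.

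The 66 control probe sets were left out. Of the others, 10833 had 1 symbol in GEO's platform annotation, 396 several and 1193 none. Arrays were scaled by the median ratio to control over the brighter probe sets, floored and converted to log2. A gene was its brightest probe set, measured if either array of a comparison exceeded the floor. Python 3.11.15, numpy 2.4.6 and pandas 2.3.3 were used, and the steps were tested on simulated arrays.

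Members and gene lists were chosen with earlier results of these data known. Named were all members, up to 4 genes per list with the largest mean absolute difference from control, class II machinery genes with a 2-fold difference, and the 5 genes of most alike pattern. A few genes were named besides, chosen after their values were seen: Sftpc and Scgb1a1 as tissue checks, Lyz2, Cst3, Cd79b, Ms4a1, Cd37, Pax5, and markers below the floor or above it on 1 array. Alternatives to scaling, floor, log and probe set were tried. Arrays carry no read depth, and their number limits the precision.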

Additional observations from a re-analysis of the deposited data

Results flagged for a closer look

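For 4 genes the tumour-bearing lungs lay on opposite sides of the control lung, the B16 lung below and the LLC lung above it; this difference between the models was not tested, since each has 1 array. The log2 difference of the B16 minus the LLC lung was −0.57 for H2-Aa, −0.60 for H2-Ea, −0.95 for H2-DMa and −0.90 for H2-DMb1. For H2-Aa and H2-Ea the B16 difference from control was −0.08 and −0.02. With scaling by the median of all probe sets it was 0.03 for H2-Aa and 0.09 for H2-Ea, so that both lungs were above control and H2-DMa and H2-DMb1 alone lay on opposite sides. A further probe set, annotated to both H2-DMb2 and H2-DMb1 and used in no comparison, had signals of 7.90 in the B16 and 43.3 in the LLC lung, against 16.9 in the control lung, so that the LLC lung alone was above the floor, by 1.84-fold. It shares the order of the H2-DMb1 probe set except that its B16 and control signals are both below the floor and have no order.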

How the results depend on the processing

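No paired analysis was possible because each group has 1 array; for the same reason no array could be left out, and no slide or scan was given to use as a block. Over 10 alternatives, 2 of them (members above a signal of 100, and centring on probe sets of like signal) chosen after seeing the data, 0 members were lower in the LLC lung than in the control lung, and the median log2 difference ran from 0.37 to 0.45. The median of the B16 minus the LLC lung ran from −0.58 to −0.38, and 6 to 8 members were lower. Scaling by the median of all probe sets gave medians of 0.15 for the B16 minus control, with 2 members lower, and −0.45 for the B16 minus LLC comparison. With deposited values, median scaling and quantile normalization, 3 members were at least 1.5-fold lower in the B16 than in the LLC lung. H2-Ea fell under that cut in each, at −0.565, −0.477 and −0.581. The B16 minus control median turned to −0.02 with a floor of 100 and with only the 7 members above 100 on all arrays; both leave out Ciita and Cd86. With the floor at the 60th percentile 1 member was at least 1.5-fold higher in the LLC lung than in the control lung, and the B16 minus LLC median was −0.38. That number was 1 as well with a floor of 100 and with the members above 100. With the mean of all probe sets of a gene it was 0, the B16 minus LLC median was −0.38, and 2 members were at least 1.5-fold lower there; this setting averages in the H2-DMa and Cd86 probe sets that lie below the floor. Single genes kept their sign in 69 of 69 values for the LLC and 66 of 69 for the B16 lung against control, with H2-Aa, H2-Ab1 and H2-Ea as exceptions, and in 67 of 69 between the models, with H2-Ab1 and Cd74 as exceptions. Changes of floor, log and probe set could not turn the sign of a member that is above the floor on every array. The sign counts, and the 0 members lower in the LLC lung, thus rest on the scaling and centring settings alone. For the LLC lung against control, deposited values and median scaling hardly moved any value. The smallest difference, 0.156 for H2-Ab1, was 0.139 and 0.142 there. Those settings could hardly turn a sign, which leaves quantile normalization and centring for that comparison. Signals near the floor, as for Cd86, limit what can be read.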
